A study of Mus musculus with 6 samples.

Results

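The genes described here are those of the nebulin family, with Kelch and N-WASP genes linked to nebulin or to nemaline myopathy. They are the nebulin-repeat genes Neb, Nebl, Nrap and Lasp1, the Kelch genes Klhl40, Klhl41 and Kbtbd13, and Wasl, which encodes N-WASP. They were chosen by name, and all probes that the platform annotation assigns to them, under current or older symbols, were taken: 14 probes for 8 genes, of 45281 probes on the array. Illumina bead arrays measured transcripts of the tibialis anterior, a muscle of mostly fast fibres, in male mice aged 8 weeks whose strain background was mixed Sv129/Black Swiss. Muscle of 3 wild type mice was compared with that of 3 mutants lacking the SH3 domain of nebulin (Neb∆SH3), 1 array per mouse, and values given per mouse follow replicates 1, 2 and 3. The labels name no other allele and no treatment, and whether the deletion was carried on both copies of Neb is not given in the sources used here. In whole muscle, fewer cells of a type and less RNA per cell cannot be told apart.

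Nebulin is a giant protein that lies along the actin thin filament of skeletal muscle, made of short repeats that each contact actin, with its C-terminal end, which carries the SH3 domain, anchored in the Z-disc. Nebulette (Nebl), found mainly in heart, and LASP1 share the repeats and the C-terminal SH3 domain but are far smaller, and N-RAP (Nrap) carries repeats and a LIM domain and takes part in the assembly of myofibrils. KLHL40 and KLHL41 are Kelch proteins of muscle that stabilise nebulin, KBTBD13 is a Kelch protein that serves as an adaptor of the cullin 3 ubiquitin ligase, and in human the genes NEB, KLHL40, KLHL41 and KBTBD13 are each mutated in nemaline myopathy. N-WASP, which activates the Arp2/3 complex, binds the SH3 domain of nebulin in mouse muscle during actin filament formation. The comparison asks whether loss of that domain alters transcript levels.

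The 250 bases before the annotated start are shown for the 4 genes that had a probe above background on every array, so that the sequences next to the measured transcripts can be read. They are from RefSeq on build GRCm38.p6, 5′ to 3′ on the gene's strand, at chr19:56390039-56390288 (minus strand) for Nrap, chr2:69669870-69670119 (plus strand) for Klhl41, chr9:65391653-65391902 (minus strand) for Kbtbd13 and chr11:97799315-97799564 (plus strand) for Lasp1. Capitals mark matches to the E-box CANNTG, bound by MyoD and other basic helix-loop-helix factors. They also mark matches to a loose MEF2 pattern (CTA, any 4 bases, then TAG). At its 4 middle bases this pattern is wider than the motif bound by the MEF2 factors of muscle, where these bases are A or T. Its end bases were fixed as given, so other forms of the motif were not searched.
Nrap: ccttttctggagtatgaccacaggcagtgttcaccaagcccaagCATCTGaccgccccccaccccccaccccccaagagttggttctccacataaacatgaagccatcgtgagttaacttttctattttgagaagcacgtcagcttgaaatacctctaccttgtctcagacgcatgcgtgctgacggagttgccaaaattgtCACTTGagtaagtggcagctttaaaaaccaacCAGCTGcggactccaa
Klhl41: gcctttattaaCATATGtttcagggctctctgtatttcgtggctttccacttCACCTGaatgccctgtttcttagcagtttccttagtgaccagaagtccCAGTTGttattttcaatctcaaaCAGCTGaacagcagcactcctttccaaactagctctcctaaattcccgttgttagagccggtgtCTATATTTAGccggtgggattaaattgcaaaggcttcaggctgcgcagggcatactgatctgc
Kbtbd13: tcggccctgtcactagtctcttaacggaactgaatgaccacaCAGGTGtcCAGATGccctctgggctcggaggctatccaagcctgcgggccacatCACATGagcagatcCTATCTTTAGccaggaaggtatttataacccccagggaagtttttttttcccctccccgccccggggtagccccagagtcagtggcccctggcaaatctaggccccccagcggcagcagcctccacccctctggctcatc
Lasp1: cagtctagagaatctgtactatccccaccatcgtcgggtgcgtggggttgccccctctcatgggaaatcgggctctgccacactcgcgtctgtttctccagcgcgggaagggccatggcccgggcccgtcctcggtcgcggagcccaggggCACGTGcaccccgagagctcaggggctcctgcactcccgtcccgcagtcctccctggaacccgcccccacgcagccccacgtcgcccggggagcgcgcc
The search also covered CATTCC, the MCAT motif, on both strands, and no matches overlapped. Nrap and Kbtbd13 held 3 E-boxes each, Klhl41 held 4 and Lasp1 held 1. A match to the loose MEF2 pattern stood in Klhl41, starting 63 bases before the start (ctatatttag). Another stood in Kbtbd13, starting 140 bases before it (ctatctttag), with a c among the 4 middle bases. Windows were found for 7 of the 8 genes, 10 in all with several for Nebl. Of these 10 windows 7 held an E-box, 2 the loose MEF2 pattern and 1 the MCAT motif. Of all 32851 windows of the same length, 66.2% held an E-box, 3.2% the loose MEF2 pattern and 12.6% the MCAT motif. A match of these letters is a description and not a measured binding site.

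The arrays were dim, and this sets what can be said of each gene. A probe is called above background on an array where its detection p, the share of the array's negative controls that are as bright, is under 0.05. Between 4000 and 5844 probes were so per array, the lowest such signal was 88.7 to 95.1, and 71.6% of all probes were above background on no array. The labelled tissue was borne out by its markers, with 10 of 11 fast muscle genes above background on all 6 arrays, against 1 of 5 slow muscle genes and 0 of 7 cardiac genes with a probe. On the first principal component of the 3422 probes tested (32.6% of the variance), wild type replicate 2 (10.7) and Neb∆SH3 replicate 1 (12.4) lay far from the remaining 4, at -6.64 to -5.09, so the fitted differences are given also without these 2 arrays.

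**Figure D1:**
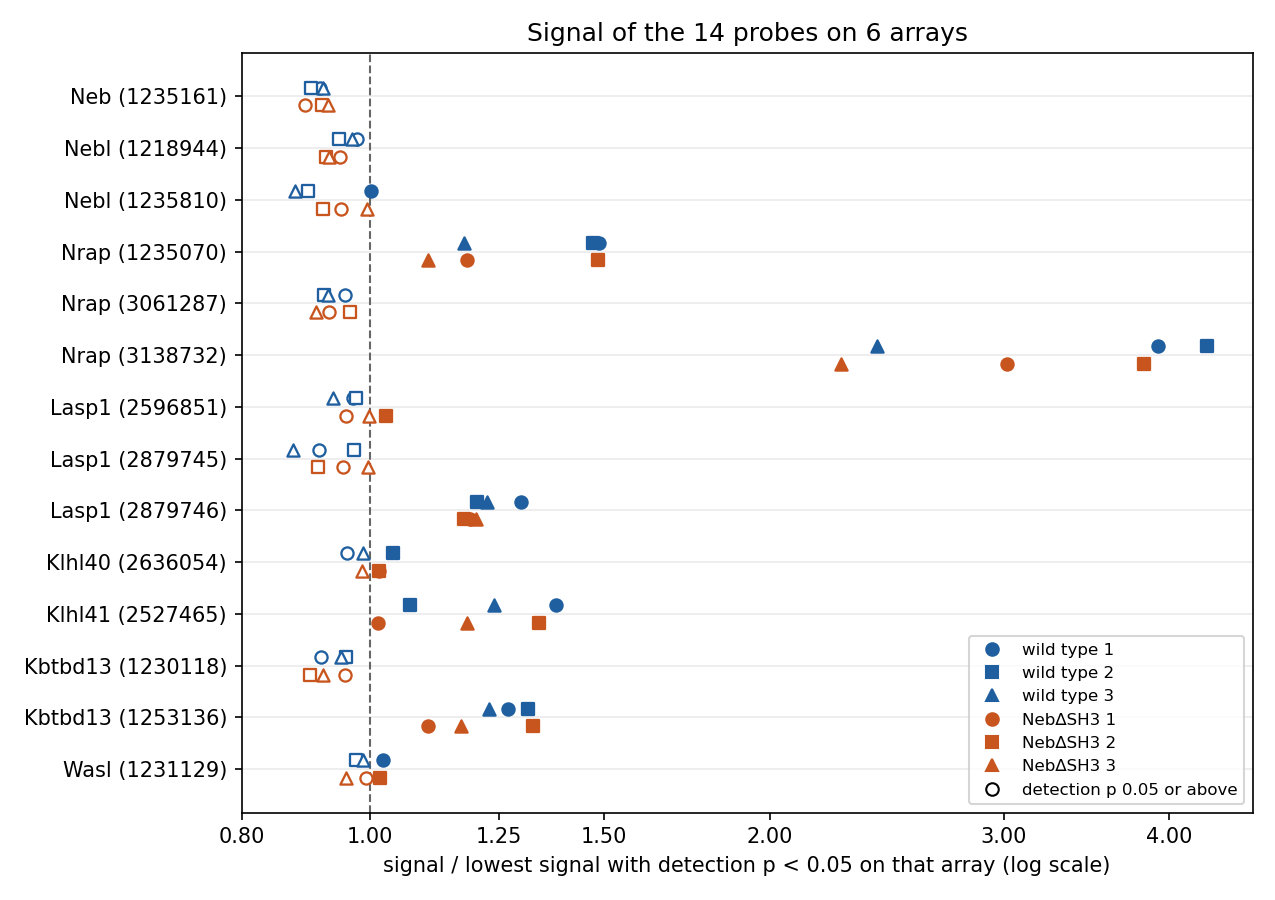
Signal of each of the 14 probes on each array, divided by the lowest signal with a detection p under 0.05 on that array, on a log axis. Blue marks are wild type and orange marks Neb∆SH3 arrays, filled where the detection p is under 0.05; 5 probes (2 of Nrap and 1 each of Lasp1, Klhl41 and Kbtbd13) are filled on all 6 arrays.

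Of the 14 probes, 5 were above background on all 6 arrays, 1 on 3 arrays, 3 on 1 or 2 arrays and 5 on none. The genes with a probe on all 6 arrays were Nrap, Lasp1, Klhl41 and Kbtbd13, and Klhl40 had its only probe on 3. Neb, Nebl and Wasl had no probe on 3 or more arrays, and their transcript levels were not measured well enough to compare.

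The single Neb probe (ILMN_1235161) was detected on 0 of 6 arrays. Its signal intensity was 83.9, 80.0 and 82.5 in the wild type mice, against 81.4, 83.3 and 88.4 in the mutants. Each value lay below the detection limit of its own array, and the groups overlapped. The arrays therefore give no level for the altered gene, no fold, and no check of the genotype labels. For comparison, a gene chosen after its values were seen, Ttn, which encodes the other giant filament protein of the sarcomere, had 12 probes, of which 2 were above background on all 6 arrays, 2 on 1 array and 8 on none. A probe at background therefore gives no measure of how abundant a transcript is.

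Nebl was read by 2 probes. ILMN_1218944 was above background on 0 arrays, with signals of 83.9 to 89.5 in wild type and 83.7 to 88.4 in Neb∆SH3 muscle. ILMN_1235810 was above background on 1 array, wild type replicate 1, where its signal was 91.7 at a detection p of 0.0481. Its other signals were 79.6 and 78.6 in the other wild type mice, against 86.6, 83.3 and 94.5 in the mutants. The highest of these 6 signals was thus on an array where the probe was not above background, and that array had the highest detection limit. No fold is given for either probe. Of the cardiac markers, the genes of the tissue in which nebulette is best known, 4 of 7 were above background on no array. Of all single probes 71.6% were so, and the count therefore says nothing about Nebl.

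Nrap, whose product is found at myotendinous junctions and in forming myofibrils, was read by 3 probes. Its probe ILMN_3138732 had signals of 359, 378 and 216 in the wild type mice, against 275, 346 and 215 in the mutants, with detection on all 6 arrays. Replicate 3 of both groups was lowest, and the groups overlapped throughout. After background correction and normalization the log2 levels were 7.75 ± 0.43 (SD, n = 3) in wild type, against 7.79 ± 0.34 (SD, n = 3) in Neb∆SH3 muscle. The fitted log2 difference was 0.039 (95% interval -0.50 to 0.57, limma adjusted p = 0.991), and 0.077 without the 2 arrays that stood apart. Had the arrays been scaled to a common median instead of quantile normalized, it would be -0.25, so no direction is given.

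A second Nrap probe, ILMN_1235070, annotated to another RefSeq transcript of the gene, was also above background on all 6 arrays. Its signals were 136, 131 and 105 in the wild type mice, against 108, 134 and 105 in the mutants. Replicate 3 was again lowest in both groups. The log2 levels were 5.61 ± 0.35 (SD, n = 3) and 5.47 ± 0.34 (SD, n = 3), with a difference of -0.14 (-0.64 to 0.36, limma adjusted p = 0.984), which was -0.0054 without both arrays. The third Nrap probe, ILMN_3061287, carries the same accession as the bright one but was above background on 0 arrays, with signals of 81.8 to 87.7. For Nrap, then, the spread among mice of 1 genotype exceeded the difference between genotypes at both measured probes.

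Lasp1, which encodes a LIM and SH3 protein of actin-rich adhesion sites in many cell types, had 3 probes annotated to 1 accession. ILMN_2879746 was above background on all 6 arrays, with signals of 119, 107 and 110 in the wild type mice, against 108, 106 and 114 in the mutants. Its log2 levels were 5.32 ± 0.08 (SD, n = 3) in wild type, against 5.36 ± 0.27 (SD, n = 3) in Neb∆SH3 muscle, where replicate 2 was lowest (5.05) and replicate 3 highest (5.57) of the 6 arrays. All wild type values lay between these extremes. The difference was 0.045 (-0.34 to 0.43, limma adjusted p = 0.991) and turned to -0.052 without both arrays and to -0.15 with median scaling.

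The other Lasp1 probes were at or near background. ILMN_2596851 was above background on 1 array, Neb∆SH3 replicate 2, with a signal of 93.0. On the other Neb∆SH3 arrays it read 87.4 and 94.9, and on the wild type arrays 83.9 to 88.9. The groups overlapped, and no fold is given. ILMN_2879745 was above background on 0 arrays, with signals of 78.3 to 86.2 in wild type and 82.7 to 94.6 in Neb∆SH3 muscle.

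**Figure D2:**
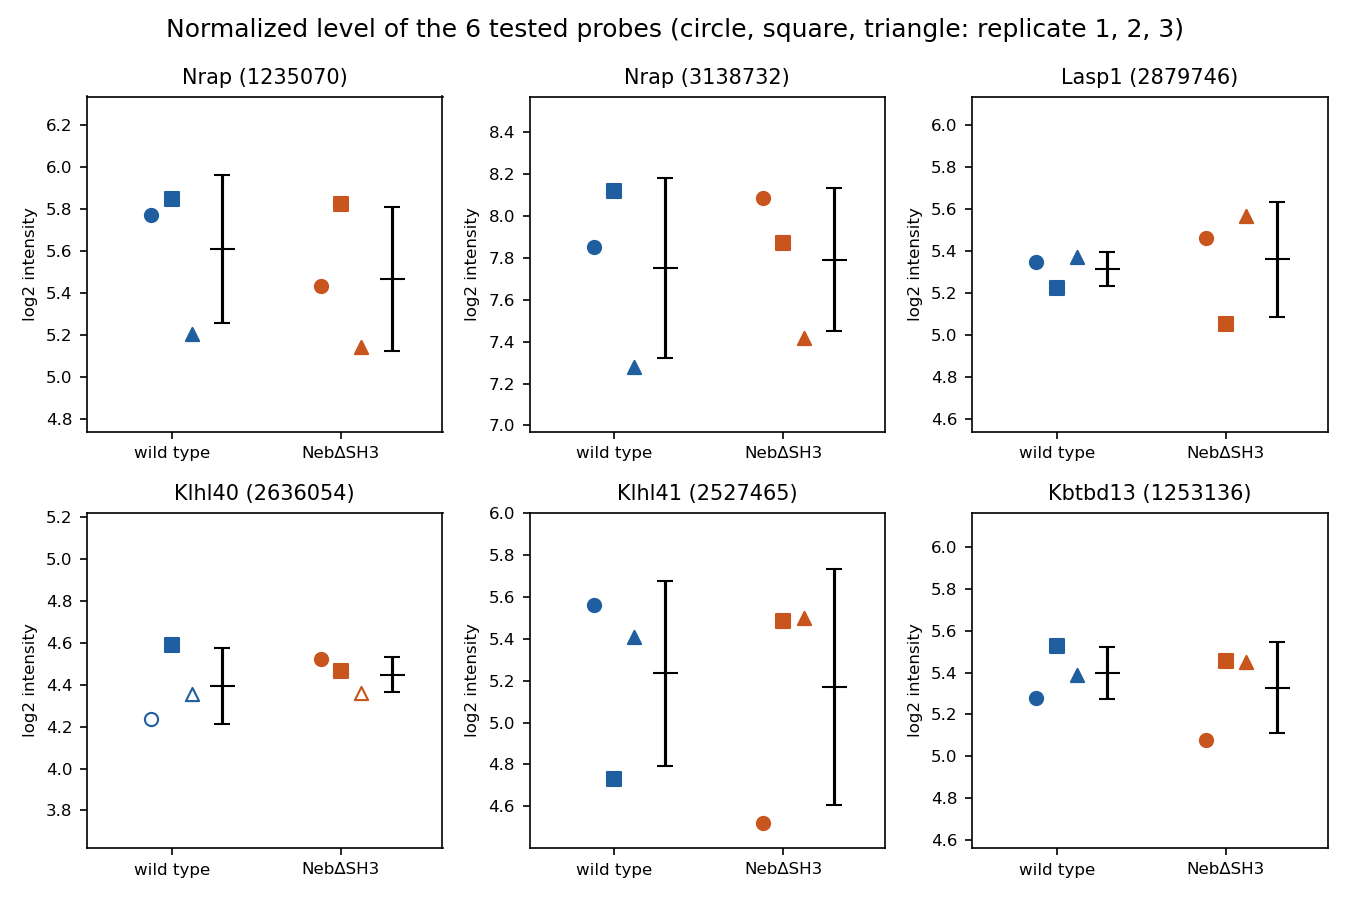
Normalized log2 intensity of the 6 tested probes on each array, with the group mean and SD (n = 3) in black beside the points; each panel spans the same range of log2 units and open symbols mark arrays with a detection p of 0.05 or above. The groups overlap in all 6 panels, and Klhl41 is low on 1 array of each group.

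Among the Kelch genes, Klhl41, whose product sarcosin acts in the assembly of myofibrils, varied most between arrays. Its probe (ILMN_2527465) was above background on all 6 arrays, with signals of 126, 94.96 and 111 in the wild type mice, against 92.4, 121 and 112 in the mutants. The log2 level was 4.73 in wild type replicate 2 and 4.52 in Neb∆SH3 replicate 1, the arrays that stood apart on the first component, and 5.41 to 5.56 on the other 4 arrays. The part of that component in these values was not tested. The value of Neb∆SH3 replicate 1 lay near the floor, at a detection p of 0.0278. The lowest log2 level above background on that array was 4.43. The group levels were 5.23 ± 0.44 (SD, n = 3) and 5.17 ± 0.56 (SD, n = 3), and their difference -0.066 (-0.71 to 0.58, limma adjusted p = 0.991). Without both arrays the difference was 0.0087 (-0.43 to 0.45). The range of Klhl41 over the 6 arrays was 1.04 log2 units, which 8.83% of the probes tested reached, where the median range was 0.57. The ranges of the Nrap probes were 0.84 and 0.71, and those of the Lasp1, Kbtbd13 and Klhl40 probes tested were 0.52, 0.45 and 0.35.

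Kbtbd13 had 2 probes annotated to 1 accession. ILMN_1253136 was above background on all 6 arrays, with signals of 116, 117 and 110 in the wild type mice, against 101, 120 and 111 in the mutants. Neb∆SH3 replicate 1 was lowest and the other Neb∆SH3 arrays lay within the wild type range or near it. The log2 levels were 5.40 ± 0.13 (SD, n = 3) and 5.33 ± 0.22 (SD, n = 3), with a difference of -0.071 (-0.44 to 0.30, limma adjusted p = 0.986) that was 0.12 without both arrays. ILMN_1230118 was above background on 0 arrays, with signals of 81.5 to 87.5.

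Klhl40, whose product stabilises nebulin and the thin filament protein leiomodin 3, had 1 probe (ILMN_2636054) close to the detection limit. Its signals were 88.0, 92.3 and 88.4 in the wild type mice, against 92.4, 91.8 and 93.6 in the mutants. It was above background on wild type replicate 2 and on Neb∆SH3 replicates 1 and 2, which met the filter of 3 arrays exactly. The log2 levels were 4.39 ± 0.18 (SD, n = 3) and 4.45 ± 0.08 (SD, n = 3), overlapping, with a difference of 0.054 (-0.30 to 0.41, limma adjusted p = 0.991), and 0.11 without both arrays. Since these levels lie at the floor of the arrays, the difference can be understated.

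Wasl was read by 1 probe (ILMN_1231129), just outside the filter, which was above background on 2 arrays, wild type replicate 1 (signal 93.6) and Neb∆SH3 replicate 2 (92.0). Its other signals were 86.5 and 88.3 in the other wild type mice, against 90.4 and 91.1 in mutant replicates 1 and 3. The groups overlapped, and no fold is given.

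Across the 6 member probes tested, from 5 genes, 0 passed an adjusted p of 0.05, as did 0% of the 3422 probes tested (limma, Benjamini-Hochberg; the lowest adjusted p was 0.984). Of the 6 members 0 had an unadjusted p under 0.05, beside 4.3% of all probes tested, and the groups did not overlap for 0 of the 6 beside 9.06%. Of the 6 fitted differences 3 were above 0 and 3 below, from -0.14 to 0.054, while over all probes 1501 were above and 1921 below, with a median of -0.029. As ratios of Neb∆SH3 over wild type, the 95% interval of Kbtbd13 ran from 0.735 to 1.23 and that of Klhl41, the widest of the 6, from 0.611 to 1.49. They cover the fitted intensities with 3 arrays per group and are no bound on the change of the transcripts. On dim probes fitted sizes can understate changes, and by how much was not measured here. The interval of Klhl40 (0.812 to 1.33) comes from levels at the floor. Its probe was not above background in 2 of 3 wild type mice and in Neb∆SH3 replicate 3.

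**Figure D3:**
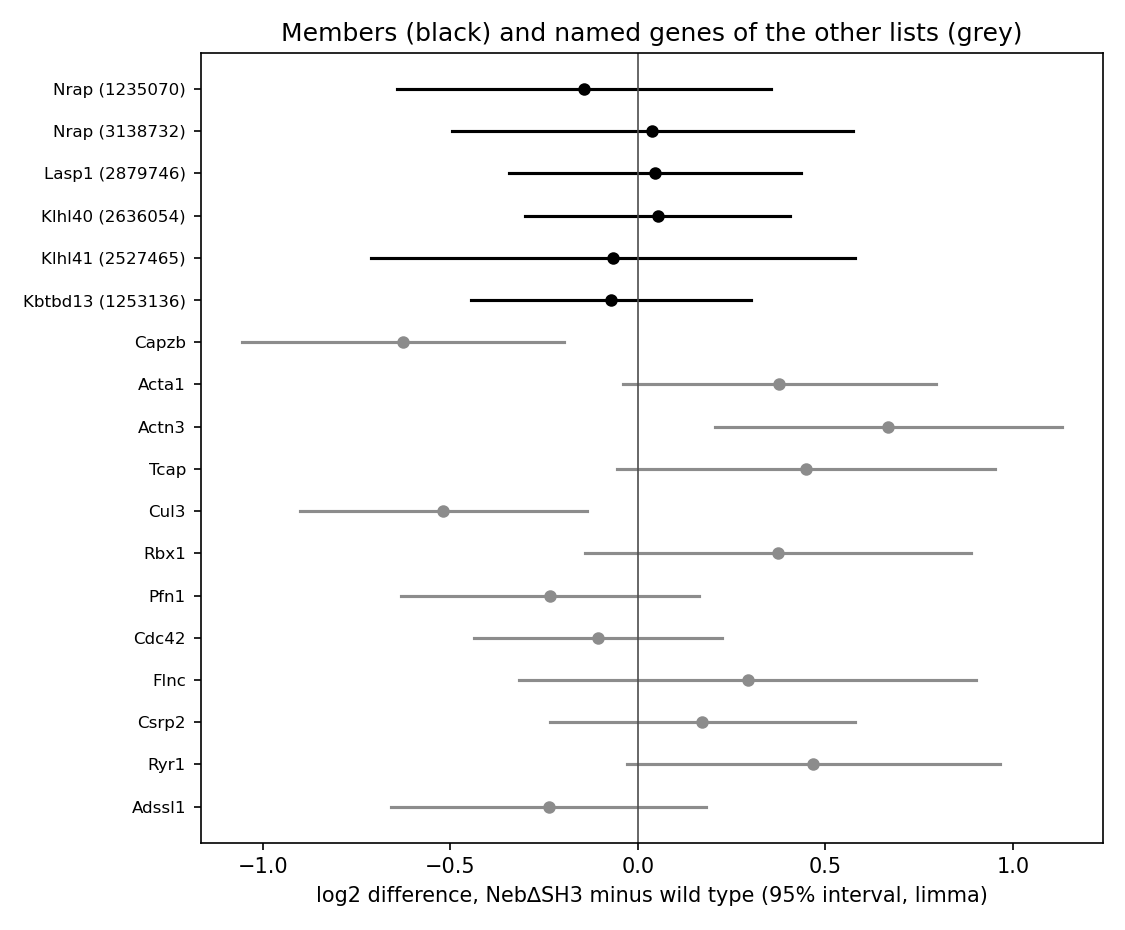
Fitted log2 difference, Neb∆SH3 minus wild type, with its 95% interval from limma, for the 6 member probes tested (black) and for 2 genes of each of the other lists (grey). Every black interval includes 0, and 3 grey ones (Capzb, Actn3 and Cul3) do not, at an adjusted p of 0.984; the grey genes are those of smallest p in each list, and 3 of the 62 list probes (4.84%) had an unadjusted p under 0.05, beside 4.3% of all probes tested.

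The proteins that nebulin and its partners act with were read from the same fit, and 0 of the 62 probes of these lists passed the adjusted threshold in either direction. At an unadjusted p under 0.05 there were 3 of 62 (4.84%), a share near the 4.3% of all probes tested, and the genes named are those of smallest p in each list. Of 19 thin filament and filament end genes 11 were tested with 17 probes, 6 with a value above 0 and 11 below (median log2 difference -0.069). In this list Capzb, which encodes a subunit of CapZ, the Z-disc protein that caps actin filaments and binds nebulin, was at 6.66 ± 0.13 (SD, n = 3) in wild type, against 6.03 ± 0.34 (SD, n = 3) in Neb∆SH3 muscle, a difference of -0.63 (-1.06 to -0.20, limma adjusted p = 0.984). Its other probes were at -0.069 and -0.26, the mean of its probes gave -0.32 (-0.65 to 0.015), and without both arrays that stood apart the difference was -0.74. Acta1, the actin of skeletal muscle, had a difference of 0.38 (-0.040 to 0.80), which was -0.016 with median scaling and 0.21 without both arrays.

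Of 17 genes of the Z-disc and the intermediate filaments around it 15 were tested with 23 probes, 9 above 0 and 14 below (median -0.027). Actn3, the α-actinin of fast fibres, was at 6.30 ± 0.14 (SD, n = 3) and 6.97 ± 0.41 (SD, n = 3), a difference of 0.67 (0.20 to 1.13, limma adjusted p = 0.984), with further probes at -0.027 and 0.23. It was 0.40 (-0.079 to 0.88) without both arrays, 0.42 (-0.18 to 1.03) with median scaling and 0.29 (-0.19 to 0.77) as the mean of its probes, each interval including 0. Tcap, which encodes telethonin, was at 0.45 (-0.054 to 0.95), at 0.52 without both arrays, and by its other probe at 0.25. Thus the probes of Capzb and of Actn3 differed among themselves by more than 0.5 log2 units.

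The cullin 3 ligase, which Kelch proteins join to their substrates, had 5 of 15 genes tested, with 3 of 7 probes above 0 and 4 below (median -0.13). Cul3, the scaffold itself, was at 6.61 ± 0.15 (SD, n = 3) and 6.10 ± 0.23 (SD, n = 3), a difference of -0.52 (-0.90 to -0.13, limma adjusted p = 0.984), with a second probe at -0.23. It was -0.73 without both arrays and -0.45 (-0.91 to 0.0097) without wild type replicate 1. With median scaling Cul3 was at -0.78, a setting where the median over all probes tested was -0.097. Its interval was -1.04 to 0.0023 with the trend and robust options of eBayes. Rbx1, its RING subunit, was at 0.37 (-0.14 to 0.89), at 0.30 without both arrays, with a second probe at 0.10. Of 20 genes of N-WASP and Arp2/3 actin nucleation 18 had a probe and 4 were tested, with 1 value above 0 and 3 below (median -0.066); 10 were above background on no array and 4 on too few. Pfn1, profilin, was at -0.23 (-0.63 to 0.16) and Cdc42, the GTPase that activates N-WASP, at -0.11 (-0.44 to 0.22). Without both arrays they were at -0.39 and -0.15.

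Among 15 adhesion and LIM partners of Lasp1, Nebl and Nrap 4 were tested, 3 above 0 and 1 below (median 0.15), with Flnc, filamin C, at 0.29 (-0.32 to 0.90) and Csrp2, a LIM protein, at 0.17 (-0.23 to 0.58). Without both arrays they were at 0.20 and 0.19. Of 5 further genes linked to nemaline or related myopathy in human 3 were tested with 7 probes, 4 above 0 and 3 below (median 0.17). Ryr1, the calcium release channel, was at 0.47 (-0.028 to 0.96), with further probes at 0.35 and 0.41, and Adssl1, an enzyme of the purine nucleotide cycle, at -0.24 (-0.66 to 0.18). Without both arrays Ryr1 was at 0.57 (0.061 to 1.08, limma adjusted p = 0.982) and Adssl1 at -0.14.

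The probes whose pattern over the 6 arrays was most like each member's were named by Pearson's r of the log2 levels, as a description. For Nrap these were Gars (r = 0.983), Atp5b (0.977) and Tbc1d17 (0.969) at ILMN_3138732, but Denn2b (0.988), Kyat1 (0.964) and Kansl3 (0.947) at ILMN_1235070. The Nrap probes thus shared no neighbour among the 3 highest of each, and their correlation with each other was not computed. For Klhl41 the most alike were Hspa8 (0.996), Ost4 (0.981) and Atp5c1 (0.979), for Kbtbd13 Fnta (0.978), Ppif (0.977) and Eif4a2 (0.957), and for Lasp1 Eef1a2 (0.964), C8g (0.959) and Cyba (0.949). These were the 3 highest for each member probe, of 1313 or 1314 probes compared over only 6 arrays. Per member probe, 7 to 27 probes had an r above 0.9. No member was among those named for another member, but with only 3 kept per probe this says nothing about the members.

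**Figure D4:**
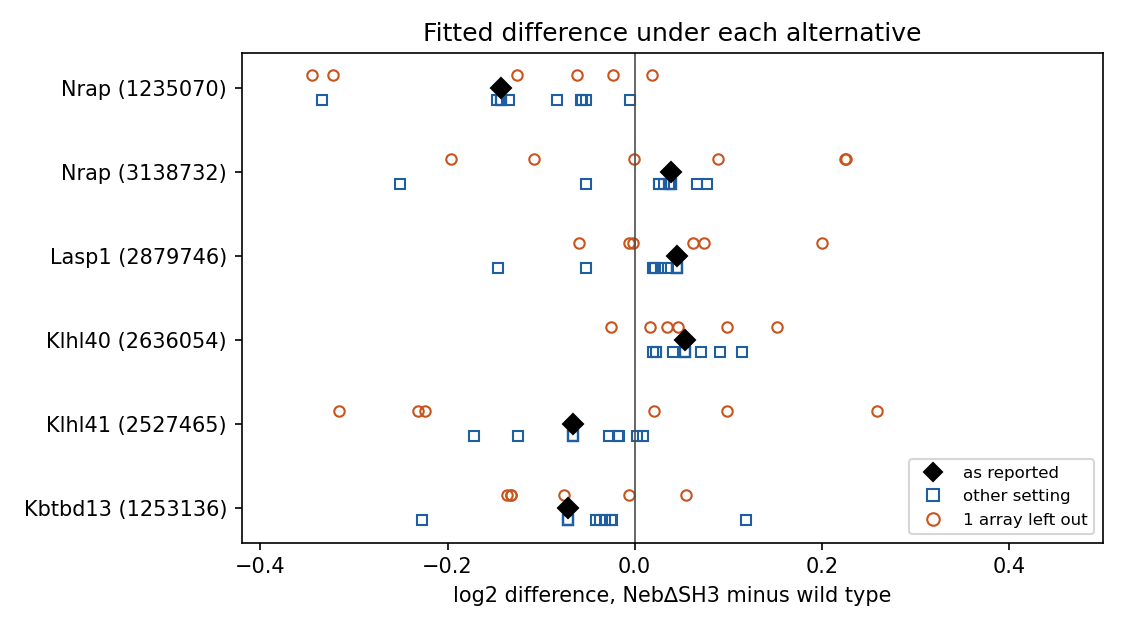
Fitted log2 difference of each tested member probe as reported (black diamond), under other settings (blue squares) and with 1 array left out (orange circles). Each probe has values on both sides of 0, and all values lie between -0.35 and 0.26.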

How the data were processed

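The authors deposited average signal intensities, not normalized, with detection p-values, per the file headers, and a table of processed values that behave as log2 values. Its tool, per the submitters' processing notes, was lumi. Its version, scale and settings were not given in the sources used here. Per the labels' protocols, Trizol-extracted RNA was labelled with biotin.

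The labels give the groups and replicate numbers and call the samples biological triplicates. Signal was corrected with limma's normexp from detection p-values (offset 16; 936 negative controls by the steps of the p-values), taken to log2 and quantile normalized. The 3422 probes detected (p under 0.05) on 3 or more of the 6 arrays were tested, each probe on its own, with limma 3.58.1 in R 4.3.3 (lmFit, eBayes, two-sided, no covariate, Benjamini-Hochberg adjustment). The path was also run on simulated arrays with known changes. None of these stood apart as 2 of the real arrays did, so that run does not measure its power on these data. Symbols came from the platform annotation, where 34885 probes had 1 symbol, 18 several and 10378 none. List genes were matched also through RefSeq synonyms.

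The members, lists, tests and markers were chosen with earlier results of these data known. Named were all members, of each other list the 2 genes of smallest unadjusted p (1 probe each), and per member probe above background on all 6 arrays the 3 most alike. Other genes were named after their values were seen. The number of arrays limits the precision.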

Additional observations from a re-analysis of the deposited data

How the results depend on the processing

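The alternatives were planned except for leaving out both arrays that stood apart, an alternative added after seeing the data. A slide block could not be fitted, since no slide is named in the sources used. The count of probes past an adjusted p of 0.05 was 0 in 19 of 19 alternatives (limma). The fit as reported had 147 of 3422 probes (4.3%) at an unadjusted p under 0.05. With median scaling the median log2 difference over all probes tested was -0.097, against -0.029 as reported. Of 111 member differences under alternatives 0 passed and 19 turned sign, 12 of them with 1 array left out. The other 7 were, with median scaling, Nrap ILMN_3138732 (-0.25) and Lasp1 (-0.15), with cyclic loess Klhl41 (0.0023), with the mean of a gene's probes Nrap ILMN_3138732 (-0.052), and without both arrays Lasp1 (-0.052), Klhl41 (0.0087) and Kbtbd13 (0.12). With 1 array left out the ranges were -0.35 to 0.018 for Nrap ILMN_1235070, -0.20 to 0.23 for Nrap ILMN_3138732, -0.060 to 0.20 for Lasp1, -0.025 to 0.15 for Klhl40, -0.32 to 0.26 for Klhl41 and -0.14 to 0.054 for Kbtbd13. The cause was not tested. Of 222 values of list genes 1 turned, Acta1 with median scaling (-0.016), but leaving out 1 array moved 8 of the 12 named list genes by over 1.5 times. Their ranges were 0.24 to 0.64 for Tcap, 0.15 to 0.59 for Rbx1, -0.32 to -0.084 for Pfn1, -0.15 to -0.060 for Cdc42, 0.055 to 0.57 for Flnc, 0.029 to 0.32 for Csrp2, 0.22 to 0.66 for Ryr1 and -0.38 to -0.073 for Adssl1. Those of the others were -0.81 to -0.47 for Capzb, 0.27 to 0.54 for Acta1, 0.48 to 0.88 for Actn3 and -0.65 to -0.45 for Cul3. With a detection p under 0.01, 8 member probes in place of 5 were above background on no array. By Spearman's rho, 8 of the 15 genes named as most alike were among the 3 highest. It is unknown whether replicate numbers pair the mice. Deviations from the group means of mice with the same number correlated at -0.22, -0.18 and 0.094, and with the replicate block 0 probes passed (117 at an unadjusted p under 0.05).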

Other observations

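Probes of 1 gene often differed in whether they rose above background, as those of Nrap, Lasp1 and Kbtbd13 did. Of 9172 genes with several probes, 687 had a probe above background on all 6 arrays, and 454 of these (66.1%) also had a probe above background on no array. The 3 members with such a pair are thus part of a common pattern on these arrays, and it was not tested what sets the probes apart.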
